A study of Mus musculus with 39 samples.

Results

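The genes of G2 and mitosis described here are 52 genes used to mark cells between the end of DNA replication and cell division, taken as a list of gene symbols. The rule used no measured value, but the list was drawn up with earlier results of these data known. All 52 were among the 53379 genes listed in the count tables, and 50 had a mean count of 10 or more and were tested among 11472 genes. Psrc1 (mean count 2.28, at 0 in 32 of 36 libraries) and Kif20b (mean count 3.94, at 0 in 24 of 36), both microtubule-associated, were under this limit and were not tested. The members were sorted by role into CDK1 and its partners, spindle checkpoint and ubiquitin ligation, Aurora kinases and chromosomal passengers, centromere and kinetochore, chromosome structure and chromatin, spindle motors and microtubule factors, cytokinesis, and nuclear envelope and pore.

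The libraries came from mosaic analysis with double markers (MADM) on chromosome 7, in which recombination between homologous chromosomes during division leaves sparse labelled cells. Neocortex was dissected from embryos of genotype MADM-7 GT/TG with Emx1-Cre/+, in a mixed C57BL/6J and CD1 background, at embryonic day 13 (E13) or E16, and between 200 and 400 cells of each colour were sorted per embryo for Smart-Seq2. Red (tdT+) and green (GFP+) cells hold both copies of chromosome 7 from 1 parent (uniparental disomy), and yellow (GFP+/tdT+) cells hold 1 copy from each. No group carried a deletion of Cdkn1c, and the Emx1 promoter drives Cre in dorsal forebrain progenitors and so labels their lineage, so the sorted cells are a mixture of dividing progenitors and their neuronal progeny. Paternal disomy was taken as red in replicates 1 to 3 and green in replicates 4 and up, which are the 2 directions of the cross.

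Cells enter mitosis when the kinase CDK1, bound to a B-type cyclin, becomes active, and they leave it when the anaphase-promoting complex marks cyclins and securin for destruction. Between these points condensins and topoisomerase compact the chromosomes, kinetochores bind spindle microtubules under the eye of a checkpoint, and the centralspindlin and contractile ring machinery divides the cell. Transcripts of these proteins accumulate in late S phase and G2 and are low in G1 and in postmitotic neurons, so in embryonic neocortex they mark radial glia and intermediate progenitors.

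Many promoters of late cell cycle genes hold a cell cycle genes homology region (CHR, letters TTTGAA or TTCGAA) beside CCAAT boxes, the letters at which the DREAM and MuvB complexes and NF-Y are known to bind. These letters were searched on both strands in 300 bases of RefSeq promoter sequence (GRCm38.p6), from 250 bases before to 50 after the annotated start, in the first window listed for each gene. Of the 52 members, 46 had a window. CHR letters were in 35 of these (76.1%) and in 19.4% of the windows of all 27025 genes. At least 2 CCAAT boxes were in 28 member windows (60.9%) against 12.2%, and both motifs were in 29 (63.0%) against 7.70%. CHR and CCAAT letters can overlap by 1 letter on opposite strands, and a match is a description of letters and not of binding. The 150 bases before and 30 after the start are shown for 6 members picked by hand, in lower case with CHR and CCAAT letters of either strand in capitals.
Cdk1 (chr10:69352883-69353062, minus strand): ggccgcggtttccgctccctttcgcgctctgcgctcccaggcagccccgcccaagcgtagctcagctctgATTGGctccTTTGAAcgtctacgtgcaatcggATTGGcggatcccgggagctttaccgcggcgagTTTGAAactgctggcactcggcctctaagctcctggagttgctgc
Ccnb2 (chr9:70421525-70421704, minus strand): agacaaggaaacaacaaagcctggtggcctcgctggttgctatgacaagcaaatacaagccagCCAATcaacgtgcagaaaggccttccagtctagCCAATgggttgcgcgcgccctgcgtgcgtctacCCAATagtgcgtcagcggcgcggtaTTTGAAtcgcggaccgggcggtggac
Cdc20 (chr4:118437314-118437493, minus strand): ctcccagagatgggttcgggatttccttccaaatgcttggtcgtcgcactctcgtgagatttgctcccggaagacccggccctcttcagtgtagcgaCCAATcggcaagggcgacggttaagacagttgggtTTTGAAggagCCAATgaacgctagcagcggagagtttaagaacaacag
Ube2c (chr2:164769779-164769958, plus strand): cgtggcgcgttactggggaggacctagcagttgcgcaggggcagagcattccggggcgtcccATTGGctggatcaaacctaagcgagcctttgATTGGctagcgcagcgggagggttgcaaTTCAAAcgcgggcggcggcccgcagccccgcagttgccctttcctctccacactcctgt
Cdca8 (chr4:124936888-124937067, minus strand): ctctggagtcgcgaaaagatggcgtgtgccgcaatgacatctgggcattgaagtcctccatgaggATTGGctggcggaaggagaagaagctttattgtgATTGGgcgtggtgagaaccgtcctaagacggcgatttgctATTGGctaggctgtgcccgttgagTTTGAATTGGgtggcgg
Tacc3 (chr5:33657978-33658157, plus strand): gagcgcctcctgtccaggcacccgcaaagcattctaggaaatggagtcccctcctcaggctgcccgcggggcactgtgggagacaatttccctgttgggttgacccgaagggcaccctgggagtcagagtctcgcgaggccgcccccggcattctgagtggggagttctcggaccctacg

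Cdk1, the mitotic kinase, has 2 CHR and 2 CCAAT matches in the printed stretch, while its cyclin Ccnb2 has 3 CCAAT boxes before a CHR that lies just after the start. Cdc20 and Ube2c, which act together in the anaphase-promoting complex, each have 1 CHR and 2 CCAAT boxes. Cdca8, the passenger protein borealin, has 3 CCAAT boxes before the start and a CHR after it whose last letter is shared with a further CCAAT box, and Tacc3 has neither motif in this stretch.

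The 36 libraries kept had 472924 to 5205788 counts in genes and 7858 to 13768 genes detected, so a floor of 3 counts corresponds to 0.576 to 6.34 CPM (counts scaled by library size). This floor covers counting error only, because PCR copies could not be removed. E13 yellow replicate 2, E16 yellow replicate 7 and E16 red replicates 5 and 6 had the fewest genes detected of their groups (9655, 7858, 8803 and 9210). These are the 4 kept libraries that the study did not use. E13 green replicate 4 (9610) and E16 green replicate 7 (10194) were also the lowest of their groups. Cdkn1c, which is maternally expressed, was lower in the paternal than in the maternal library of 12 of 12 embryos, and Ndn, which is paternally expressed, was higher in 12 of 12. Of the radial glia markers, Pax6, Vim and Fabp7 were detected in all libraries, whereas Hes5 was under the count limit and at 0 in 18 of the 21 E16 libraries. Summed levels of the 4 tested blood genes, led by haemoglobins, ranged from 0.214 to 19027 CPM between libraries. Of 6 microglia and 6 endothelial or pericyte markers, 2 and 1 passed the count limit, and Cldn5, which defines endothelial cells, was at 0 in 34 of 36 libraries.

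Expression per length (CPM per kilobase of exon, mean over 36 libraries) placed Ccnb2 at the top of the members with 109, followed by Ube2c with 99.9, Cks1b, a small CDK-binding subunit, with 62.9, Cdca8 with 48.4 and Cdc20 with 47.0. The order of these means stands on libraries that spread widely, since the SD of Ccnb2 alone was 108 CPM per kilobase among the 5 E13 green libraries. The lowest were Nek2, a centrosomal kinase, with 0.700, Hmmr with 0.714 and Gas2l3 with 0.787 CPM per kilobase. Ube2c overlaps Tnnc2 on the opposite strand over 22.8% of its exon length, and Cdc25c overlaps Gm3550 over 12.7%. Counting was unstranded, so reads in these stretches are set aside as ambiguous and can be missing from the counts of both genes. Members with near-identical copies elsewhere in the genome may have lost reads, since only single alignments were kept. This may hold for Cks1b, Cks2, Hmgb2, Anp32e, Tubb4b and Cbx5, but copies were not searched for.

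The E13 libraries held nearly every member: between 0 and 3 of the 50 were at 0 in the red and green libraries, and 1 or 2 in the yellow libraries other than replicate 2, which had 13. At E16 the number at 0 was 4 to 31 in yellow, 4 to 24 in red and 1 to 22 in green libraries. Gtse1, a microtubule-binding protein of G2, was at 0 in 15 of 21 E16 libraries and 4 of 15 E13 libraries, and Dlgap5, a spindle assembly factor, in 14 and 1. Ccnb2, Ube2c, Cenpa, Cbx5, Rangap1, Anp32e, Tubb4b, Ckap5 and Tmpo were at 0 in none of the 36 libraries.

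**Figure D1:**
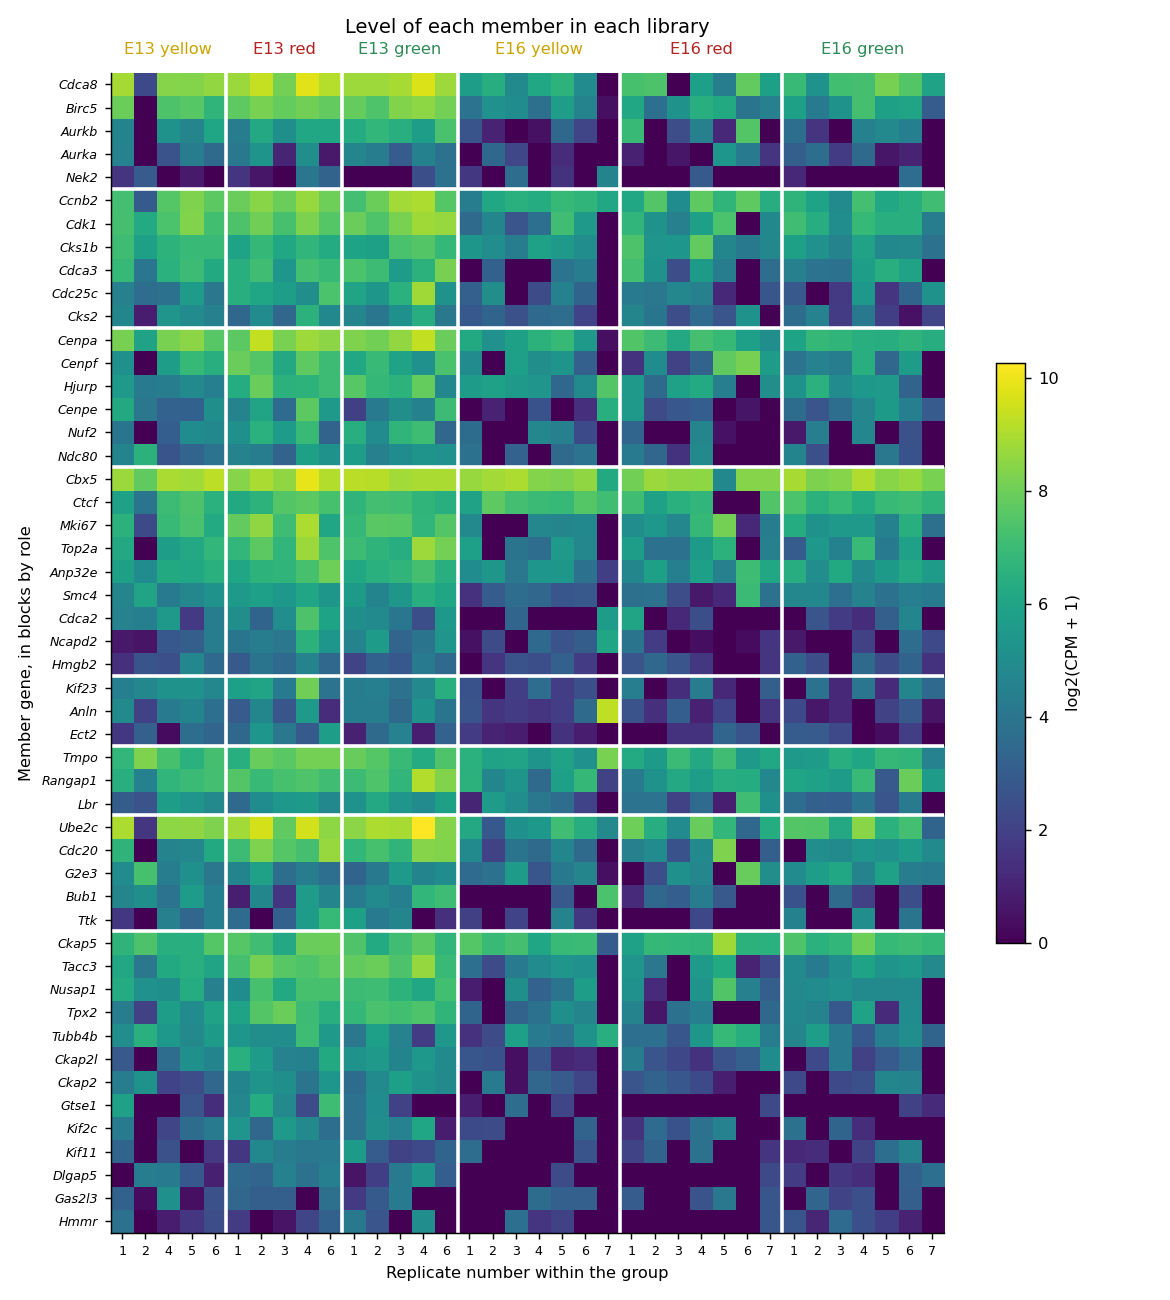
Level of the 50 tested members (rows, in blocks by role) in the 36 libraries (columns, by group and replicate), as log2(CPM + 1) on the colour scale. Dark cells, at or near 0, are more frequent in the E16 blocks and in E13 yellow replicate 2.

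Summed over the 50 members, the level was 3491 ± 1048 CPM (SD, n = 5) in yellow, 6274 ± 1938 CPM (SD, n = 5) in red and 6176 ± 1678 CPM (SD, n = 5) in green cells at E13. At E16 it was 1604 ± 217 CPM (SD, n = 7) in yellow, 2069 ± 577 CPM (SD, n = 7) in red and 2037 ± 609.7 CPM (SD, n = 7) in green cells. The red and green libraries of E13 (4333 to 8906 CPM and 5103 to 9128 CPM) all lay above every E16 library of their colour (up to 2764 and 2990.4 CPM). In yellow cells 1 of 5 E13 libraries, replicate 2 at 1659.5 CPM, lay within the E16 range, and the other 4 were at 3689 CPM or more. With so small a pool of sorted cells, a lower summed level can be fewer cells in G2 and mitosis or less of this RNA in each, and the 2 cannot be told apart.

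**Figure D2:**
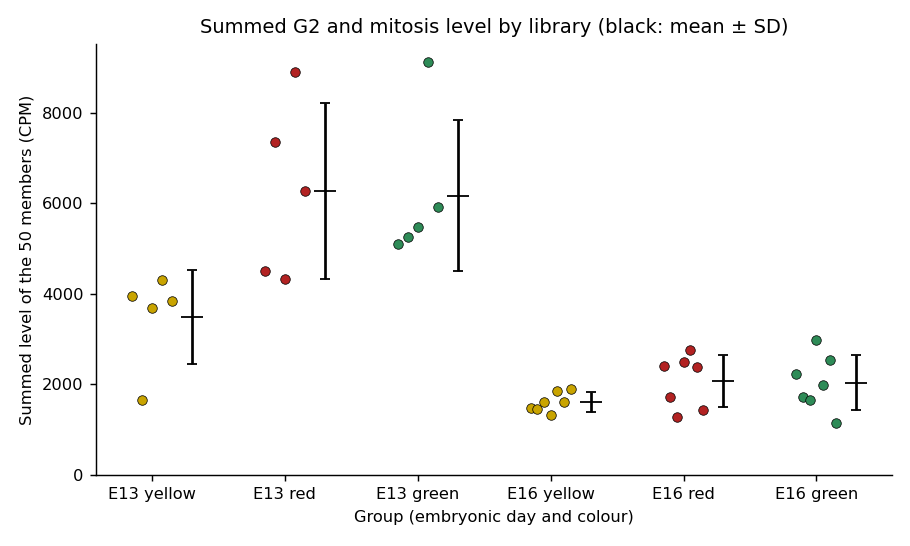
Summed level of the 50 members (CPM) in each library by group, with the mean and SD in black. The E13 red and green libraries sit above all E16 libraries, and 1 E13 yellow library sits among the E16 yellow libraries.

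The first comparison asked how these genes differ between E13 and E16. Of 50 members, 14 fell from E13 to E16 when the 3 colours of each embryo were summed (4 E13 and 7 E16 embryos), and none rose. The 14 stand against 1.81% of all genes tested that were called lower at the same threshold, an adjusted p under 0.05 in edgeR's quasi-likelihood test with Benjamini-Hochberg adjustment. A further 19 members had an unadjusted p under 0.05, all lower, which gives 33 against 8.48% of all genes. The median log2 fold change of the members was -1.79, beside 0.06 over all genes, and 47 of 50 were lower in sign. The 47 include members near 0 at E16, for example Gtse1, Dlgap5, Ttk, Hmmr and Ect2, at 0 in 15, 14, 13, 11 and 7 of 21 E16 libraries. Their mean levels were 28.7, 10.9, 24.5, 6.20 and 12.1 CPM in the E13 embryos. In the E16 embryos they were 0.955, 2.04, 3.65, 1.87 and 2.14 CPM. Such members passed the count limit mainly through E13, so their lower sign is not independent of that limit. Gtse1 is also among the 14. In 21 members every E16 embryo was below every E13 embryo, which was the case for 3.39% of all genes. CPM below refers to these embryo sums, in the order of E13 replicates 1, 2, 4 and 6, unless a colour is named. By library, E13 values are given for yellow replicates 1, 2, 4, 5 and 6 and for red and green replicates 1, 2, 3, 4 and 6.

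**Figure D3:**
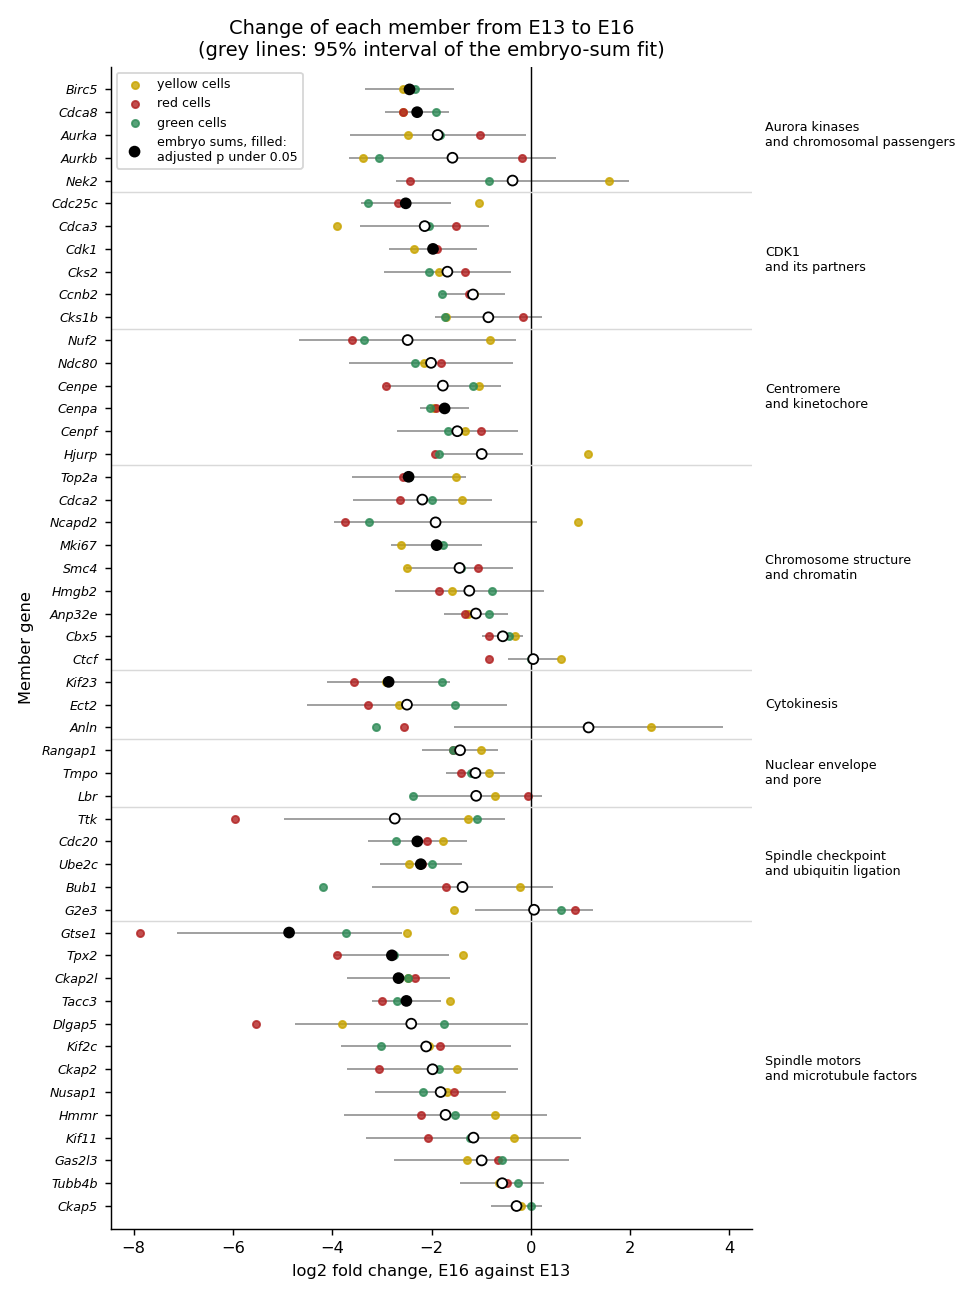
log2 fold change of each member from E13 to E16 (x axis) in yellow, red and green cells (coloured points) and in embryo sums (black circles with 95% intervals, filled where the adjusted p was under 0.05). All 14 filled circles lie left of 0, at log2 fold changes of -1.74 or lower.

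Among CDK1 and its partners, 2 of 6 fell and 5 had an unadjusted p under 0.05. Cdk1 was at 173, 163, 271 and 233 CPM in the E13 embryos and between 14.2 and 120.0 CPM (median 46.9) in the E16 embryos. No E16 embryo reached the lowest E13 embryo, and the kinase fell (log2 fold change -1.97, SE 0.46, adjusted p = 0.0288). Cdc25c, the phosphatase that activates CDK1, was at 71.3 ± 34.9 CPM (SD, n = 4) at E13 and 12.4 ± 6.48 CPM (SD, n = 7) at E16 and fell (log2 fold change -2.52, SE 0.46, adjusted p = 0.00885). Ccnb2 was at 179, 192, 332 and 209 CPM in the E13 embryos and between 44.3 and 151 CPM (median 115) in the E16 embryos. Ccnb2 also had no overlap between ages, but its log2 fold change of -1.17 (SE 0.33) missed the threshold (adjusted p = 0.068). By library, Ccnb2 at E13 was at 148, 6.57, 188, 311 and 204 CPM in yellow cells, 242, 344, 249.7, 411 and 254 CPM in red cells and 146, 248, 462, 514 and 189 CPM in green cells. Its E16 levels were 19.4 to 116 (median 80.5) CPM in yellow, 31.0 to 213 (median 103) CPM in red and 28.5 to 147 (median 86.0) CPM in green cells. All E13 green libraries but replicate 1 were above the E16 green libraries. Cdca3, a trigger of mitotic entry, had a log2 fold change of -2.14 (SE 0.66, adjusted p = 0.0965), and the CDK-binding subunits Cks2 and Cks1b had -1.68 (SE 0.65) and -0.86 (SE 0.55).

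Of the 5 genes of the spindle checkpoint and of ubiquitin ligation, Ube2c and Cdc20 fell. Ube2c was at 441, 413, 693 and 328 CPM in the E13 embryos and between 23.8 and 168 CPM (median 109) in the E16 embryos. Ube2c, the ubiquitin-conjugating enzyme of the anaphase-promoting complex, had a log2 fold change of -2.22 (SE 0.42, adjusted p = 0.0102). By library, Ube2c at E13 was at 522, 2.11, 372, 376 and 316 CPM in yellow cells, 459.5, 779, 216, 768 and 373 CPM in red cells and 357, 516, 483, 1238 and 326 CPM in green cells. At E16 it ranged over 6.03 to 137 (median 43.1) CPM in yellow, 10.2 to 259 (median 84.2) CPM in red and 9.0 to 351 (median 146) CPM in green cells. E13 yellow replicate 2 stood far below the other E13 libraries. Cdc20, the activator of the same complex, had a log2 fold change of -2.29 (SE 0.51, adjusted p = 0.0237). The checkpoint kinases Ttk and Bub1 had log2 fold changes of -2.74 (SE 1.13) and -1.38 (SE 0.93), neither past the threshold, and G2e3, a ubiquitin ligase, was at 0.065 (SE 0.60).

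Of the Aurora kinases and chromosomal passengers, Cdca8 and Birc5, the non-enzymatic passenger subunits borealin and survivin, fell. Cdca8 was at 428, 352, 641 and 445 CPM in the E13 embryos and between 42.8 and 149 CPM (median 98.7) in the E16 embryos. It had the smallest p of the members together with Tacc3 (log2 fold change -2.29, SE 0.33, adjusted p = 0.0016). By library, Cdca8 at E13 was at 472, 3.75, 339.7, 327 and 385 CPM in yellow cells, 428, 668, 276, 911 and 556 CPM in red cells and 434, 435, 484, 858 and 436 CPM in green cells. In the E16 libraries it ranged over 0 to 99.9 (median 51.3) CPM in yellow, 0 to 225 (median 56.2) CPM in red and 37.5 to 285 (median 141) CPM in green cells. Every E13 library other than yellow replicate 2 lay above every E16 library of its own colour. Birc5 fell from 200.5 ± 41.4 CPM (SD, n = 4) to 36.8 ± 20.4 CPM (SD, n = 7) (log2 fold change -2.44, SE 0.46, adjusted p = 0.0096). The kinases of the group had log2 fold changes of -1.58 (SE 1.07) for Aurkb, -1.88 (SE 0.90) for Aurka and -0.37 (SE 1.20) for Nek2, none of which passed.

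At the centromere and kinetochore 1 of 6 members fell, although all 6 had an unadjusted p under 0.05. Cenpa was at 249, 298, 414 and 258 CPM in the E13 embryos and between 56.2 and 121 CPM (median 99.8) in the E16 embryos. Cenpa, the histone H3 variant that marks centromeres, had a log2 fold change of -1.74 (SE 0.25, adjusted p = 0.00169). By library, Cenpa at E13 was at 284, 59.6, 297, 357 and 194 CPM in yellow cells, 207, 650.4, 294, 431 and 362 CPM in red cells and 308, 271, 392, 652 and 239.6 CPM in green cells. The E16 libraries had 0.345 to 117 (median 56.9) CPM in yellow, 32.9 to 177 (median 116) CPM in red and 61.4 to 114 (median 86.6) CPM in green cells. The E16 green libraries spread little and all lay below the E13 green libraries. Hjurp, the chaperone that loads Cenpa, had the smallest difference of the 6 at -0.99 (SE 0.42). Cenpe, Cenpf, Ndc80 and Nuf2, proteins of the outer kinetochore, were at -1.77 (SE 0.59), -1.48 (SE 0.62), -2.01 (SE 0.85) and -2.48 (SE 1.12).

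Of the 9 genes of chromosome structure and chromatin, Top2a and Mki67 fell. Top2a, the topoisomerase that untangles sister chromatids, was at 159 ± 80.7 CPM (SD, n = 4) at E13 and 28.8 ± 16.2 CPM (SD, n = 7) at E16 (log2 fold change -2.46, SE 0.59, adjusted p = 0.0332). Mki67, the proliferation marker that coats mitotic chromosomes, had a log2 fold change of -1.90 (SE 0.47, adjusted p = 0.0383). Cbx5 was at 409.9, 425, 635 and 535 CPM in the E13 embryos and between 238 and 389 CPM (median 369) in the E16 embryos. Cbx5, heterochromatin protein 1 alpha and the most abundant of the 9, had the smaller log2 fold change of -0.56 (SE 0.21, adjusted p = 0.167). By library, Cbx5 at E13 was at 418, 218, 504, 462 and 609 CPM in yellow cells, 336, 496, 383, 946 and 542 CPM in red cells and 592, 571, 461, 497 and 506 CPM in green cells. E16 levels were 75.6 to 519 (median 376) CPM in yellow, 26.6 to 419 (median 339) CPM in red and 292 to 532 (median 346) CPM in green cells. E16 red replicate 5, at 26.6 CPM, was far below its group. Ctcf, an insulator protein found in cells of all cycle stages, was at 0.049 (SE 0.26), and the remaining members Anp32e, Cdca2, Hmgb2, Ncapd2 and Smc4 lay between -2.19 and -1.11 without passing.

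The spindle motors and microtubule factors were the largest group, and 4 of 13 fell. Tacc3 was at 133, 179, 182 and 129 CPM in the E13 embryos and between 14.9 and 47.7 CPM (median 25.7) in the E16 embryos. Tacc3, which stabilises spindle microtubules, was thus lower in every E16 embryo (log2 fold change -2.51, SE 0.36, adjusted p = 0.0016). Its partner Ckap5, the microtubule polymerase, had the smallest difference of the group. Ckap5 was at 150.1, 119, 165 and 177 CPM in the E13 embryos and between 84.7 and 207 CPM (median 117) in the E16 embryos. The groups overlapped for Ckap5 (log2 fold change -0.29, SE 0.26, adjusted p = 0.638). By library, Ckap5 at E13 was at 103, 171, 87.0, 86.8 and 187 CPM in yellow cells, 189.6, 140.2, 71.8, 244 and 246 CPM in red cells and 176, 76.6, 137, 207 and 108 CPM in green cells. Its E16 range was 6.90 to 187 (median 119.7) CPM in yellow, 57.3 to 450.1 (median 104) CPM in red and 94.1 to 259.8 (median 118) CPM in green cells. E16 red replicate 5 was the highest of all libraries for this gene. Tpx2, which activates Aurora A on the spindle, Ckap2l and Gtse1 also fell, with log2 fold changes of -2.80 (SE 0.59, adjusted p = 0.0167), -2.67 (SE 0.53, adjusted p = 0.0127) and -4.87 (SE 1.16, adjusted p = 0.0332). The value of Gtse1 rests on low counts, since no E16 embryo exceeded 3.08 CPM and E13 replicate 4 was at 1.36 CPM. The motors Kif11 and Kif2c had log2 fold changes of -1.16 (SE 1.11) and -2.11 (SE 0.87), and the other 6 lay between -2.41 and -0.58.

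**Figure D4:**
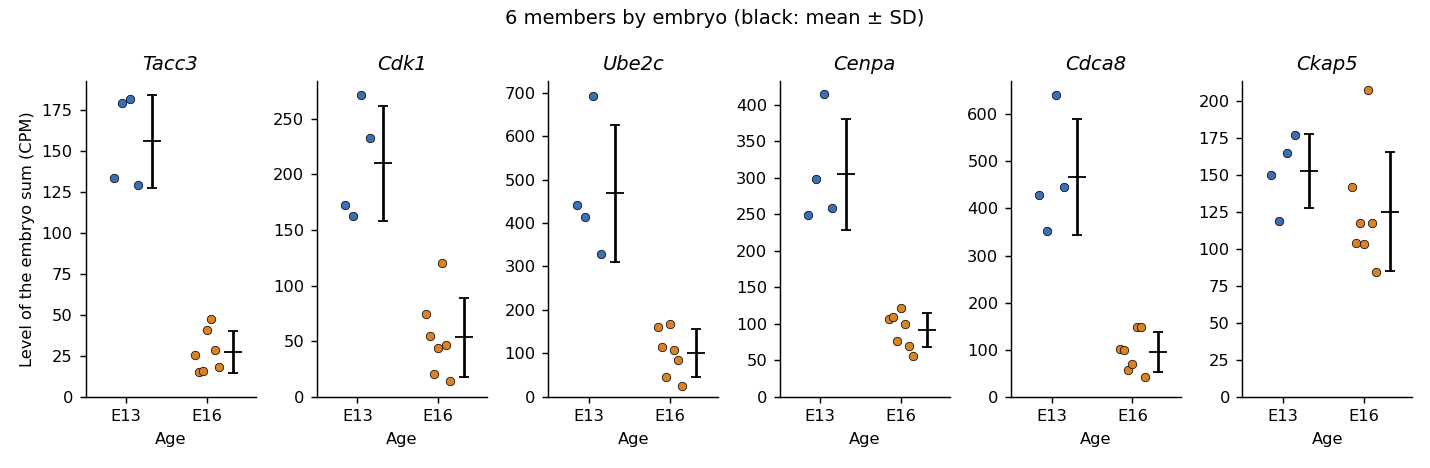
Level (CPM) of 6 members in the embryo sums at E13 (blue, 4 embryos) and E16 (orange, 7 embryos), with the mean and SD in black. Tacc3, Cdk1, Ube2c, Cenpa and Cdca8 show no overlap between ages, and Ckap5 overlaps.

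Of the 3 cytokinesis genes, Kif23, the motor of centralspindlin, fell. Kif23 was at 33.0, 32.8, 110.4 and 38.9 CPM in the E13 embryos and between 1.66 and 15.5 CPM (median 7.30) in the E16 embryos. Its difference was the widest of the role leaders (log2 fold change -2.86, SE 0.63, adjusted p = 0.0232). By library, Kif23 at E13 was at 20.8, 26.3, 37.5, 36.7 and 26.0 CPM in yellow cells, 54.0, 63.3, 17.6, 265 and 13.9 CPM in red cells and 19.7, 20.5, 13.1, 27.2 and 86.2 CPM in green cells. At E16 the range was 0 to 11.8 (median 2.79) CPM in yellow, 0 to 20.0 (median 1.56) CPM in red and 0 to 25.3 (median 10.4) CPM in green cells. Kif23 was at 0 in 5 of 21 E16 libraries and in none of the E13 libraries, and E13 red replicate 4 was far above its group. Ect2, the exchange factor that activates RhoA at the equator, had a log2 fold change of -2.50 (SE 1.03, adjusted p = 0.219). It was at 0 in 7 of 21 E16 libraries, so this value rests on low counts. Anln, a scaffold of the contractile ring, was the only member with a positive log2 fold change above 1, 1.16 (SE 1.38, adjusted p = 0.734). That value rests on 1 library, E16 yellow replicate 7, at 620.6 CPM beside 1.91 to 10.8 CPM in the other 6 of its group. Anln was singled out after its values were seen, and without that embryo its log2 fold change was -2.48 (SE 0.69, adjusted p = 0.0563), so the sign under edgeR turned without it. With that embryo kept, DESeq2's Wald test gave -2.19 (SE 0.74, adjusted p = 0.0391). In red and green cells, which do not include it, Anln had -2.56 (SE 1.30) and -3.12 (SE 1.12).

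None of the 3 nuclear envelope and pore genes passed. Tmpo was at 125, 229.5, 173 and 196 CPM in the E13 embryos and between 49.5 and 144 CPM (median 77.1) in the E16 embryos. Tmpo encodes the lamina-associated polypeptide 2 and had a log2 fold change of -1.12 (SE 0.30, adjusted p = 0.0603). By library, Tmpo at E13 was at 110.0, 308, 154, 94.6 and 150.1 CPM in yellow cells, 87.4, 237, 198, 276 and 281 CPM in red cells and 235, 187, 125, 79.5 and 172 CPM in green cells. The E16 levels were 35.4 to 294 (median 60.3) CPM in yellow, 45.7 to 139.7 (median 72.3) CPM in red and 22.5 to 112 (median 64.9) CPM in green cells. The yellow libraries with few genes detected, E13 replicate 2 and E16 replicate 7, were the highest of their groups. Rangap1, the GTPase activator of Ran, and Lbr, the lamin B receptor, had -1.42 (SE 0.39, adjusted p = 0.0625) and -1.10 (SE 0.67).

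In green cells (5 E13 and 7 E16 libraries) 6 of 50 fell, against 0.628% of all genes called lower, and 27 had an unadjusted p under 0.05, all lower, against 7.7%. The 6 were Tacc3 at -2.70 (SE 0.41, adjusted p = 0.00335), Cenpa at -2.03 (SE 0.31, adjusted p = 0.00335), Cdca8 at -1.91 (SE 0.41, adjusted p = 0.0294), Cdk1 at -1.98 (SE 0.44, adjusted p = 0.0352), Birc5 at -2.32 (SE 0.54, adjusted p = 0.0428) and Ccnb2 at -1.79 (SE 0.42, adjusted p = 0.0457). Tacc3 was at 225, 247, 169.7, 406 and 124 CPM in the E13 green libraries and 17.6 to 61.8 (median 31.8) CPM at E16, without overlap. Of the 6, 5 were also among the 14 of the embryo sums, which include the green libraries of the embryos with all 3 colours kept and so are not independent of them. The other role leaders in green cells had log2 fold changes of -2.0 (SE 0.57) for Ube2c, -0.44 (SE 0.22) for Cbx5, 0.013 (SE 0.36) for Ckap5, -1.78 (SE 1.06) for Kif23 and -1.20 (SE 0.44) for Tmpo. The median over the members was -1.85, and 48 of 50 were lower in sign.

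In red cells 0 of 50 members passed (0.148% of all genes were called lower), while 25 had an unadjusted p under 0.05, all lower, against 5.4% of all genes. DESeq2 called 10. The smallest p-values were those of Gtse1 at -7.88 (SE 1.70, adjusted p = 0.0695), which had 2 counts in 1 E16 red library and none in the other 6, Birc5 at -2.46 (SE 0.55, adjusted p = 0.0723) and Cenpa at -1.92 (SE 0.45, adjusted p = 0.0856). The other leaders had -1.25 (SE 0.46) for Ccnb2, -2.18 (SE 0.62) for Ube2c, -2.57 (SE 0.87) for Cdca8, -0.84 (SE 0.48) for Cbx5, -0.32 (SE 0.53) for Ckap5, -3.57 (SE 1.30) for Kif23 and -1.41 (SE 0.45) for Tmpo. The median was -1.90, and G2e3 was the 1 member higher in sign.

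In yellow cells 0 of 50 passed (0.0523% of all genes were called lower), and 11 had an unadjusted p under 0.05, all lower, against 4.76%. DESeq2 also called 0, and the 10 yellow libraries that the study used gave 5. The smallest p-values were those of Ube2c at -2.46 (SE 0.81, adjusted p = 0.322), Cdca3 at -3.90 (SE 1.32, adjusted p = 0.335) and Cdca8 at -2.57 (SE 0.93, adjusted p = 0.375). Cenpa, Ccnb2, Cbx5, Ckap5, Kif23 and Tmpo had -1.96 (SE 0.73), -1.14 (SE 0.63), -0.31 (SE 0.40), -0.20 (SE 0.57), -2.91 (SE 1.12) and -0.84 (SE 0.56). The median was -1.50, and 45 of 50 were lower in sign. Singly coloured and yellow cells are compared in their change with age below, as an interaction, and red with green cells were not.

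From a list of 60 further G2 and mitosis genes, 55 were tested in the embryo sums and 6 fell, against 1.81% of all genes called lower. The median of the 55 was -1.74. The smallest p-values were those of Kif22, a chromosome-arm motor, at -3.10 (SE 0.43, adjusted p = 0.00131), Ccnb1, the main B-type cyclin, at -2.62 (SE 0.39, adjusted p = 0.00201) and Ccna2, the cyclin of S phase and G2, at -2.74 (SE 0.42, adjusted p = 0.00236). In green cells Ccnb1, Kif22 and Spc24, a kinetochore protein, fell by 2.67, 3.75 and 4.09 on the log2 scale. In red cells the smallest p-values of the list were those of Foxm1 and Sgo2a, both at 0 in all 7 E16 red libraries, and Ccnb1 at -2.93 (SE 0.73, adjusted p = 0.124), and in yellow cells those of Kif20a at -5.34 (SE 1.55, adjusted p = 0.256), Ccnf at -5.57 (SE 1.77, adjusted p = 0.305) and Smc2 at -2.63 (SE 0.84, adjusted p = 0.306). Of 39 tested S phase genes 16 fell in the embryo sums, against the same 1.81% of all genes, and the median of the 39 was -1.84.

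In the embryo sums 5 of 7 tested radial glia markers were lower at E16 and 3 of 8 projection neuron markers were higher, with medians of -1.67 and 0.83. Of all genes 1.81% were called lower. The share called higher is not given here, so the 3 of 8 have no background to be read against. The radial glia markers Slc1a3 and Fabp7 had higher mean CPM at E16 in every colour (20.3 to 71.8 and 600 to 885 in yellow cells). The neuron markers Tbr1 and Bcl11b had lower mean CPM at E16 in every colour (639 to 303 and 147 to 104 in yellow cells). Of the other lists, 1 of 4 Cajal-Retzius and 1 of 2 microglia markers were lower, and 0 of 2 interneuron, 4 blood and 1 pericyte marker passed. None of 6 intermediate progenitor markers passed (median -0.65). The summed radial glia level, which Fabp7 leads, ranged over 1856 to 3199.8 CPM in E13 green and 971 to 3751 CPM in E16 green cells. Summed interneuron markers (2 of 6 tested) were at 0.801 to 76.4 CPM in E13 red cells and at 0 in all 7 E16 red libraries. Cajal-Retzius markers (4 of 5 tested) were at 279.8 to 566 CPM in E13 yellow and 19.4 to 227 CPM in E16 yellow cells. Their part in the change of the members was not tested.

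The calls of the embryo sums depended on which embryos entered. The count of 14 became 4 with replicates 1 to 3 alone, 0 with replicates 4 and up alone, 7 without E13 replicate 4 and 21 without E16 replicate 7, while the median stayed between -2.03 and -1.66 in all 18 alternatives. With all 39 libraries 16 members were called, and with the 32 libraries of the study 19 were. DESeq2 called 21, all lower.

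The second comparison set the singly coloured cells, which arise by recombination in G2 with the recombinant chromosomes going to different daughter cells, against yellow cells of the same embryo. At E13 the members were higher in sign in singly coloured cells in 45 of 50 cases, with a median log2 fold change of 1.07 beside -0.12 over all genes, but 0 of 50 passed (0.00872% of all genes were called). With an unadjusted p under 0.05 there were 10, all higher, against 2.36% of all genes, and DESeq2 called 8. The smallest p-values were those of Tacc3 at 2.05 (SE 0.52, adjusted p = 0.406), Hjurp at 2.39 (SE 0.65, adjusted p = 0.436) and Cdc25c at 2.63 (SE 0.81, adjusted p = 0.508). Tacc3 was higher by 1.43, 4.00, 1.84 and 1.34 in log2 CPM in embryos 1, 2, 4 and 6, and 20 of the 50 members were higher in all 4 of these embryos, as were 6.68% of all genes.

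The role leaders at E13 differed less. Cenpa, Ccnb2 and Cdca8 had log2 fold changes of 0.90 (95% interval -0.00569 to 1.81), 1.20 (95% interval -0.10 to 2.51) and 1.17 (95% interval -0.36 to 2.70). Ube2c and Kif23 had 1.04 (95% interval -0.68 to 2.76) and 0.99 (95% interval -0.55 to 2.53). Cbx5, Ckap5 and Tmpo had 0.39 (95% interval -0.21 to 0.99), 0.26 (95% interval -0.63 to 1.16) and 0.16 (95% interval -0.69 to 1.01). By role, all 6 centromere genes and all 9 chromatin genes were higher in sign, with medians of 1.40 and 0.90, and 11 of 13 spindle genes were, with a median of 1.49. Against yellow cells alone, which both contrasts share, green cells had a median of 1.14 and red cells one of 1.05.

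By embryo the median difference of the members at E13 was 0.36, 2.75, 1.36 and 0.64 in embryos 1, 2, 4 and 6, above 0 in all 4. The largest value came from embryo 2, whose yellow library had few genes detected, and without that library the median log2 fold change of the fit was 0.86, with 45 of 50 higher in sign. With all 39 libraries the median was 0.44, beside -0.60 over all genes, with 35 of 50 higher in sign, and without embryo 1 it was 1.63, with 46 of 50. These were the lowest and the highest median in 15 alternatives. Radial glia markers were higher in sign in singly coloured cells for 7 of 7 genes (median 0.94), projection neuron markers were lower for 8 of 8 (median -0.49), and S phase genes were higher for 37 of 39 (median 1.16). Intermediate progenitor markers had medians of 1.56, 0.033, 0.89 and 0.88 in embryos 1, 2, 4 and 6. The part of these lists in the difference of the members was not tested. Among the other G2 and mitosis genes the smallest p-values were those of Ccna2 at 2.08 (SE 0.68, adjusted p = 0.557), Racgap1 at 2.14 (SE 0.87, adjusted p = 0.676) and Bub1b at 2.55 (SE 1.07, adjusted p = 0.684), and 0 of 55 passed.

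At E16 the members were higher in sign in singly coloured cells in 36 of 50 cases, with a median of 0.98 beside 0.00 over all genes, and 0 of 50 passed (0% of all genes were called). With an unadjusted p under 0.05 there were 3, all higher, against 0.985% of all genes, and DESeq2 called 0. These were Mki67 at 2.78 (SE 1.12, adjusted p = 1), Cdca3 at 3.64 (SE 1.57, adjusted p = 1) and the kinase Aurkb at 2.93 (SE 1.36, adjusted p = 1). Mki67 differed by -1.12 to 6.03 (median 1.64, higher in 6 of 7) embryos in log2 CPM. The leaders had 0.35 (95% interval -0.59 to 1.28) for Ccnb2, 1.03 (95% interval -0.24 to 2.29) for Ube2c, 1.36 (95% interval -0.42 to 3.15) for Cdca8 and 0.95 (95% interval -0.23 to 2.14) for Cenpa. Cbx5, Ckap5, Kif23 and Tmpo had -0.025 (95% interval -0.77 to 0.72), 0.42 (95% interval -0.58 to 1.42), 1.01 (95% interval -1.94 to 3.96) and -0.083 (95% interval -1.14 to 0.97).

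The median difference of the members by embryo at E16 was 1.18, 0.68, 0, 0.98, -0.41, 0.053 and 1.94 in embryos 1 to 7, above 0 in 5 of 7, and no member was higher in all 7. Embryo 7 gave the largest value, and all genes tested had a median of 1.02 in the same embryo, where the yellow library had the fewest genes detected. Without that library the median of the fit was 0.67, and without the yellow library of embryo 5, which had the highest Cdk1 of its group, it was 1.21. Radial glia markers were again higher in sign for 7 of 7 genes (median 1.02). Projection neuron markers had medians on both sides of 0, at -0.17, -0.088, -0.15, -0.032, 0.059, 0.081 and -0.39 in embryos 1 to 7. Intermediate progenitor markers had medians of 0.96, 0.29, -0.92, 1.24, 1.09, 0.78 and 0.092 in the same order. The part of these lists in the difference of the members was not tested. Spc25, Mybl2 and Aspm had the smallest p-values of the other G2 and mitosis genes, at 2.03 (SE 0.99), 3.55 (SE 1.99) and 2.92 (SE 1.71).

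The difference between singly coloured and yellow cells was not shown to change with age. As an interaction, 0 of 50 members passed (0% of all genes) and 2 had an unadjusted p under 0.05, against 4.14% of all genes, and DESeq2 called 1, Ncapd2. They were Ncapd2, a condensin subunit, at -5.90 (SE 2.21, adjusted p = 1) and Hjurp at -3.25 (SE 1.41, adjusted p = 1), followed by Gtse1 at -6.02 (SE 3.05, adjusted p = 1). The median was -0.18 beside 0.16 over all genes, and it ran from -0.57 to 0.51 over 24 alternatives. The leaders Ccnb2, Ube2c, Cdca8, Cenpa, Cbx5, Ckap5, Kif23 and Tmpo had -0.87 (SE 0.79), -0.034 (SE 1.11), 0.18 (SE 1.30), 0.039 (SE 0.78), -0.43 (SE 0.56), 0.15 (SE 0.73), -0.017 (SE 3.10) and -0.25 (SE 0.72). Kif23 had an SE of over 3 log2 units, but an SE derived from the F statistic is unreliable for a fold change near 0. DESeq2's Wald test gave Kif23 0.00219 (SE 1.40), which sets no narrow limit either.

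**Figure D5:**
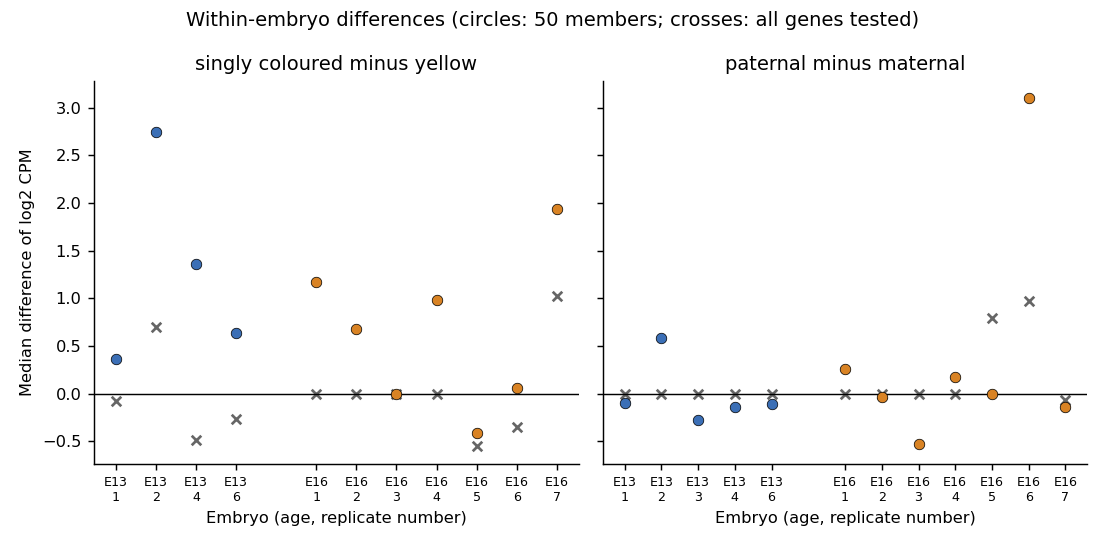
Median difference of log2 CPM over the 50 members (circles, blue at E13 and orange at E16) and over all genes tested (crosses) in each embryo, for singly coloured minus yellow cells (left) and paternal minus maternal disomy (right). Most circles at left lie above 0, and at right they scatter about 0 except for E16 embryo 6.

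The third comparison asked whether cells with paternal disomy, which had less Cdkn1c, an inhibitor of cyclin-dependent kinases, differ in G2 and mitosis genes from cells with maternal disomy of the same embryo. At both ages together 0 of 50 members passed (0.061% of all genes were called) and 0 had an unadjusted p under 0.05 (2.58% of all genes), and DESeq2 called 0. The members divided into 23 higher and 27 lower in sign, with a median log2 fold change of -0.05 beside 0.00 over all genes, and the median ran from -0.23 to 0.15 over 22 alternatives. Ccnb2 and Cdk1 had -0.00137 (95% interval -0.79 to 0.78) and 0.077 (95% interval -1.07 to 1.23). Ube2c, Cdca8 and Cenpa had -0.075 (95% interval -1.16 to 1.01), 0.13 (95% interval -1.21 to 1.47) and 0.29 (95% interval -0.52 to 1.11). Cbx5, Ckap5, Kif23 and Tmpo had -0.050 (95% interval -0.63 to 0.53), -0.19 (95% interval -0.95 to 0.58), 0.64 (95% interval -1.41 to 2.70) and -0.21 (95% interval -0.94 to 0.53). The intervals of Cbx5 and Ccnb2 lie within 1 log2 unit of 0. Those of Ckap5 and Tmpo end at -0.95 and -0.94. None of these intervals sets a firm limit at 1 log2 unit, because a normal quantile made them narrower than the test allows. For fold changes near 0, such as those of Ccnb2 and Cbx5, the SE derived from the F statistic is also unreliable. The intervals of Cdk1, Ube2c, Cdca8, Cenpa and Kif23 reach beyond 1 log2 unit, so a difference of that size lies within their error. The smallest p-values were those of Tubb4b, a beta tubulin, at -1.19 (SE 0.65), Nusap1 at -1.42 (SE 0.79) and Ect2 at -1.83 (SE 1.03), all with an adjusted p of 1.

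At E13 (5 embryos) 0 of 50 passed (0% of all genes), and only Ttk had an unadjusted p under 0.05, at -4.57 (SE 1.86, adjusted p = 1), against 2.21% of all genes. DESeq2 called Ttk as well, and no other member. Ttk was low, at 0 in 3 of 15 E13 libraries. The median was 0.06 and 27 of 50 were higher in sign. The leaders had 0.083 for Ccnb2, 0.12 for Ube2c, -0.056 for Cdca8, 0.17 for Cenpa, -0.46 for Cbx5, -0.30 for Ckap5, 0.60 for Kif23 and -0.63 for Tmpo, with SEs from 0.28 to 0.92. By embryo the median difference of the members was -0.10, 0.59, -0.28, -0.15 and -0.11 in embryos 1, 2, 3, 4 and 6.

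At E16 (7 embryos) 0 of 50 passed (0.0262% of all genes), and 2 had an unadjusted p under 0.05, against 2.28%. These were Ncapd2 at 3.76 (SE 1.59, adjusted p = 1) and Tubb4b at -1.84 (SE 0.85, adjusted p = 1), followed by Ect2 at -3.18. The median was 0.14, 27 of 50 were higher in sign, and DESeq2 called 0. The leaders had -0.084 for Ccnb2, -0.27 for Ube2c, 0.30 for Cdca8, 0.42 for Cenpa, 0.36 for Cbx5, -0.068 for Ckap5, 0.65 for Kif23 and 0.22 for Tmpo, with SEs from 0.45 to 1.96. By embryo the median difference was 0.26, -0.035, -0.53, 0.17, 0, 3.10 and -0.14 in embryos 1 to 7. Embryo 6, whose maternal (red) library had few genes detected, stood apart, and all genes tested had a median of 0.98 in the same embryo. Without it the median log2 fold change of the fit was -0.17 with 17 of 50 higher in sign.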

How the data were processed

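The deposited tables hold read counts per gene, made by the authors with STAR 2.5.0c on GRCm38 with single alignments kept and technical replicates combined. SAMtools 1.8 and bedtools 2.26.0 are also named in their processing notes. The unstranded column was used. Of 39 libraries, 36 with at least 40% uniquely aligned reads were kept, with 472924 to 5205788 counts. Replicates are single embryos. Lines of unassigned reads were left out. Symbols came from the Gencode annotation, matched for 53274 of 53379 genes.

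Genes with a mean count of 10 or more were fitted with edgeR 4.0.16 (TMM scaling, quasi-likelihood test, two-sided, Benjamini-Hochberg adjustment over 11472 genes, R 4.3.3). Ages were compared without a block, by colour and for sums of the 3 colours of an embryo. Colours and disomy directions of 1 embryo were compared with the replicate number as a block. Same-numbered libraries of different colours were taken to come from the same embryo, since the labels give only the replicate number. Their deviations from group means correlated on average at 0.0439 at E13 and 0.0294 at E16, beside -0.00919 and -0.00357 for different numbers. The lowest same-numbered correlations were 0.00582 at E13 and -0.0398 at E16. With values this near 0 the correlations are a weak check of the pairing. The disomy direction came from the study's list of samples. Within-embryo differences used log2 CPM with a prior count of 2.

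The members and lists were chosen with earlier results of these data known. Named were the members past the threshold, the member with the highest mean count of each role, the 3 with the smallest p in each comparison, those below the count limit, and the 3 further G2 and mitosis genes with the smallest p in an age or colour comparison. Other members are given by role. Alternatives were DESeq2 1.42.0 (size factors or Wald test), no count filter, all 39 or the study's 32 libraries, each cross direction alone, no block, and each replicate left out. The scripts were tested on simulated data.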

Additional observations from a re-analysis of the deposited data

Results flagged for a closer look

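Values far from the others of their group (Dixon's criterion at 95%) were found in 24 of 128 groups of 4 to 10 values examined. The criterion flags about 1 in 20 groups of normally distributed values. That rate is no measure for this count, because CPM are skewed and often 0. Some members were also picked by hand, and Anln was singled out after its values were seen. Over the members, E13 yellow replicate 2 had the lowest summed level of its group, 1659.5 CPM beside 3689 to 4297, and 13 members at 0 beside 1 to 2. E13 green replicate 4 had the highest, 9128 CPM beside 5103 to 5913, and E16 green replicate 7 had 22 members at 0 beside 1 to 9. The median paternal minus maternal difference was 0.59 in E13 embryo 2 beside -0.28 to -0.10, and 3.10 in E16 embryo 6 beside -0.53 to 0.26.

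Among the role leaders, Cbx5 was at 26.6 CPM in E16 red replicate 5 beside 270.1 to 419, and Ckap5 in the same library was at 450.1 CPM beside 57.3 to 112. Cdca8 and Ube2c were at 858 and 1238 CPM in E13 green replicate 4 beside 434 to 484 and 326 to 516. Tmpo was at 308 CPM in E13 yellow replicate 2 beside 94.6 to 154, and at 294 CPM in E16 yellow replicate 7 beside 35.4 to 92.8. Kif23 stood out in E13 red replicate 4 at 265 CPM beside 13.9 to 63.3, in E13 green replicate 6 at 86.2 CPM beside 13.1 to 27.2, in E16 yellow replicate 4 at 11.8 CPM beside 0 to 5.02, and in the embryo sum of E13 replicate 4 at 110.4 CPM beside 32.8 to 38.9.

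Of the other members, Cdk1 was at 137 CPM in E16 yellow replicate 5 beside 0 to 45.2, and Mki67 at 279 CPM in E16 red replicate 5 beside 1.22 to 114. Gtse1 was at 57.7 CPM in E13 yellow replicate 1 beside 0 to 5.49, at 11.9 CPM in E16 yellow replicate 3 beside 0 to 3.38, at 3.87 CPM in E16 red replicate 7 where the others were at 0, and at 3.08 CPM in the embryo sum of E16 replicate 3 beside 0 to 1.17. Anln was at 620.6 CPM in E16 yellow replicate 7 beside 1.91 to 10.8, and at 263 CPM in the embryo sum of the same embryo beside 1.22 to 5.74.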

How the results depend on the processing

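In embryo sums, 14 became 4 with replicates 1 to 3 alone and 0 with replicates 4 and up alone, where few embryos remain, and 7 to 21 when 1 embryo was left out. In green cells, 6 became 18 with DESeq2's Wald test, 0 with all 39 libraries, 1 with replicates 1 to 3 alone, 0 with replicates 4 and up alone and 2 to 8 when 1 library was left out (2 without E13 replicate 4 or E16 replicate 3). In red cells, 0 became 10 with DESeq2's Wald test, 1 with no filter on low counts, 7 with the 32 libraries of the study and 0 to 1 when 1 library was left out (1 without E16 replicate 5). In yellow cells, 0 became 5 with the 32 libraries of the study. DESeq2's Wald test called 8 members for singly coloured against yellow at E13, 1 for the change of that difference with age and 1 for paternal disomy at E13, where the main test called 0. The cause of these shifts was not tested. Anln in embryo sums went from 1.16 to -2.48 without E16 replicate 7, to -2.19 (SE 0.74, adjusted p = 0.0391) with DESeq2's Wald test, to -2.79 with the 32 libraries of the study and to -2.29 with replicates 1 to 3 alone. DESeq2 was run with its default replacement of outlying counts. Without the replicate block the medians were 0.84 for singly coloured against yellow at E13, 0.55 at E16 and -0.071 for paternal disomy at both ages, and the block changed no call of a member in these comparisons.

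Signs turned for role leaders that did not pass the threshold, and the cause was not tested. For E16 against E13 in yellow cells, the sign turned to 0.55 for Cbx5 and 0.16 for Ckap5 with replicates 1 to 3 alone and 0.15 for Ckap5 with the 32 libraries of the study. For E16 against E13 in green cells, the sign turned to -0.026 for Ckap5 with DESeq2 size factors, -0.030 for Ckap5 with DESeq2's Wald test, -0.026 for Ckap5 with no filter on low counts, -0.050 for Ckap5 with replicates 1 to 3 alone and -0.012 for Ckap5 with replicates 4 and up alone. For E16 against E13 in embryo sums, the sign turned to 0.00153 for Ckap5 with all 39 libraries. For singly coloured against yellow at E13, the sign turned to -0.40 for Cbx5 and -0.43 for Ckap5 with all 39 libraries and -0.047 for Tmpo with replicates 1 to 3 alone. For singly coloured against yellow at E16, the sign turned to 0.23 for Cbx5 with replicates 4 and up alone, -0.16 for Ckap5 and 0.47 for Tmpo with the 32 libraries of the study and -0.49 for Ckap5 with replicates 1 to 3 alone. For the same difference at E16 minus E13, the sign turned to 0.37 for Cbx5 and 0.81 for Kif23 with all 39 libraries, 0.12 for Cbx5 with replicates 4 and up alone, -0.82 for Cdca8, 0.14 for Ube2c, -0.18 for Cenpa, -0.53 for Ckap5 and 0.48 for Kif23 with replicates 1 to 3 alone, 1.18 for Ube2c, -0.80 for Ckap5 and 0.040 for Tmpo with the 32 libraries of the study, 0.38 for Ube2c, -0.00744 for Cenpa and 0.23 for Kif23 with no replicate block, -0.00849 for Cenpa with DESeq2 size factors and -0.011 for Cenpa and 0.00219 for Kif23 with DESeq2's Wald test. For paternal against maternal disomy at E13, the sign turned to 0.046 for Cdca8 and -0.00735 for Ube2c with replicates 1 to 3 alone, -0.048 for Ccnb2 with all 39 libraries, -0.00418 for Ccnb2 and -0.66 for Kif23 with replicates 4 and up alone and -0.42 for Kif23 with no replicate block. For paternal against maternal disomy at E16, the sign turned to -0.079 for Cbx5, -0.57 for Cdca8, 0.39 for Ccnb2 and -1.20 for Kif23 with replicates 1 to 3 alone, 0.12 for Ube2c and 0.10 for Ckap5 with replicates 4 and up alone, 0.16 for Ube2c with no replicate block and 0.11 for Ccnb2, 0.21 for Ckap5 and -0.25 for Kif23 with the 32 libraries of the study. For paternal against maternal disomy at both ages, the sign turned to 0.035 for Cbx5 and 0.19 for Ube2c with replicates 4 and up alone, 0.020 for Cbx5 with colour as a term besides the replicate block, -0.026 for Cdca8 and 0.20 for Ube2c with all 39 libraries, -0.26 for Cdca8, 0.24 for Ccnb2 and 0.12 for Tmpo with replicates 1 to 3 alone, 0.21 for Ube2c with no replicate block, 0.00653 for Ccnb2 with no filter on low counts and 0.075 for Ccnb2 with the 32 libraries of the study. When 1 replicate was left out the values also spanned 0 for some leaders. For E16 against E13 in yellow cells they were -0.38 to 0.013 for Ckap5. For E16 against E13 in green cells they were -0.18 to 0.19 for Ckap5. For singly coloured against yellow at E13 they were -0.054 to 0.66 for Ckap5 and -0.013 to 0.44 for Tmpo. For singly coloured against yellow at E16 they were -0.28 to 0.15 for Cbx5 and -0.29 to 0.44 for Tmpo. For the same difference at E16 minus E13 they were -0.47 to 0.87 for Cdca8, -0.72 to 0.69 for Ube2c, -0.39 to 0.52 for Cenpa, -0.24 to 0.47 for Ckap5, -0.51 to 0.26 for Tmpo and -0.42 to 0.43 for Kif23. For paternal against maternal disomy at E13 they were -0.30 to 0.13 for Cdca8, -0.032 to 0.43 for Ube2c, -0.20 to 0.34 for Cenpa and -0.030 to 0.32 for Ccnb2. For paternal against maternal disomy at E16 they were -0.060 to 0.87 for Cdca8, -0.61 to 0.091 for Ube2c, -0.37 to 0.13 for Ccnb2, -0.36 to 0.27 for Ckap5 and -0.14 to 1.74 for Kif23. For paternal against maternal disomy at both ages they were -0.18 to 0.075 for Cbx5, -0.027 to 0.41 for Cdca8, -0.24 to 0.10 for Ube2c, -0.14 to 0.11 for Ccnb2 and -0.33 to 0.00266 for Ckap5.

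Low counts limit all of this: at E16 up to 31 of 50 members were at 0 in a library, and a member at 0 can still be present below 0.576 to 6.34 CPM.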
